A study of Aspergillus nidulans with 12 samples.

Results

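The transcriptome of an Aspergillus nidulans strain labelled rimO deletion was compared with that of wild type after 17 h of growth on glucose. The comparison uses 4 of the 12 libraries of the series, 2 cultures of the deletion-labelled strain and 2 of wild type strain A1153, chosen by their genotype and time labels. The same strains were also harvested late, at 54 h for the deletion-labelled strain and at 48 h for wild type, and a strain labelled rimO overexpression was harvested at 17 h and 48 h, again with 2 cultures a group. Poly(A) RNA was sequenced from cultures grown at 37 °C in liquid minimal medium, which held glucose at 50 mM and nitrate at 10 mM. The labels describe 17 h as primary metabolism. They also state that the knockout took up glucose more slowly. The glucose left at 17 h is not given, so the deletion and its slower glucose use cannot be told apart. The extent of the deletion, the promoter of the overexpression construct and the number of transformants behind each strain are not given in the sources used here, and the deletion-labelled libraries share 1 strain name. The cultures are called duplicates, with no word on separate inocula, so the p-values measure the spread between these cultures only.

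The series title names RimO as the homolog of Rim15p. In budding yeast Rim15 is a protein kinase that nutrient-sensing pathways (TORC1, protein kinase A and Sch9) hold back while glucose is plentiful. When nutrients run out it acts through small endosulfine proteins and through the transcription factors Msn2, Msn4 and Gis1 on stress-defence and stationary-phase genes, among them genes of heat-shock chaperones. The comparison on glucose therefore looks at a kinase under the condition in which, in yeast, its pathway is mostly held back.

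The 2 deletion-labelled libraries at 17 h held 10662796 and 16304508 counts, and the 2 wild type libraries 17113704 and 12709723. The cultures of a group differed by more than counting error in every group (chi-square per degree of freedom 11.6 for the deletion-labelled strain and 47.3 for wild type at 17 h). AN5245, a gene with no symbol in the reference, took 0.104% and 0.12% of the deletion-labelled libraries, against 0.143% and 2.08% of the wild type libraries. At 17 h this gene thus set wild type replicate 2 apart. Its share also differed between late cultures, at 1.41% and 0.058% in wild type and 0.915% and 1.91% in the deletion-labelled strain. It was not called (log2 change -3.39, adjusted p = 0.205). On the second principal component of the 6 libraries at 17 h, which held 14.1% of the variance, deletion-labelled replicates 1 and 2 stood at -23.97 and -5.97, against 9.36 and 19.4 for wild type replicates 1 and 2. Replicate 1 of the deletion-labelled strain thus lay farther from wild type than replicate 2, and of the genes called lower below, 105 were lower in replicate 1 than in replicate 2 of the deletion-labelled strain, as were 98 in replicate 1 than in replicate 2 of wild type. No marker of another cell type was called. The 8 conidium markers summed to 31.7 and 33.2 CPM (counts scaled to library size, with TMM factors) in the deletion-labelled cultures and to 31.9 and 27.8 CPM in wild type. Most of that sum came from yA and vosA. The 4 markers of sexual tissue summed to 313 and 334 CPM in the deletion-labelled cultures and to 304 and 303 CPM in wild type. Nearly all of this came from nsdD, nsdC and steA, so the sum says little about cpeA. That gene had 1.04 and 2.08 CPM in the deletion-labelled cultures and 2.98 and 1.96 CPM in wild type. The 4 markers of autolysing hyphae summed to 141 and 167 CPM in the deletion-labelled cultures and to 176 and 175 CPM in wild type. None of the 16 was called by edgeR (2 had an unadjusted p under 0.05), and none was at 0 in all 4 libraries. Of all genes tested 1.66% were called, so the lack of calls among 16 genes says little about cell types.

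The targeted gene was still read in the deletion-labelled strain. No file names rimO, and AN7572 is taken for it from general knowledge. It stood at 60.5 and 67.4 CPM in the deletion-labelled cultures, 588 and 504 CPM in the overexpression-labelled cultures and 99.8 and 109 CPM in wild type, with no overlap between groups. The log2 change against wild type was -0.71 ± 0.10 (SE, edgeR quasi-likelihood test, Benjamini-Hochberg adjusted p = 0.00305). The adjusted p was 0.0699 without deletion-labelled replicate 1 and 0.071 without wild type replicate 2. Since reads remain, the strain is named by its label throughout. Where along the gene these reads lie was not analysed here.

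Few genes were called, and most of those were lower in the deletion-labelled strain. Of 9670 genes tested, 161 were called at an adjusted p under 0.05, which is 1.66%. The deletion-labelled strain was lower for 126 of them (1.3% of genes tested) and higher for 35 (0.362%). The falls reached further than the rises. A log2 change of at least 1 was passed by 32 genes that fell (0.331%) and by 2 that rose (0.0207%), and the median change was -0.72 among the genes that fell and 0.54 among those that rose, beside 0.02 over all genes tested. The falls also took in abundant transcripts. Of the genes that fell, 14 had a mean of at least 1000 CPM over the 4 libraries, while the most abundant gene that rose had a mean of 323 CPM. No called gene had overlapping cultures between the strains. The calls were chosen for their difference between these same cultures, which favours this. Uncalled genes can separate too, as AN8168 did (edgeR adjusted p = 0.414), and the share over all genes is not given here. Non-overlap of single genes below is therefore a description only. At an unadjusted p under 0.05 there were 678 lower and 465 higher genes. The number of calls depends on each culture. Without deletion-labelled replicate 1, 13 genes were lower and 3 higher. Without wild type replicate 2 the counts were 18 and 1, without wild type replicate 1 they were 37 and 5, and without deletion-labelled replicate 2 they were 88 and 25.

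**Figure D1:**
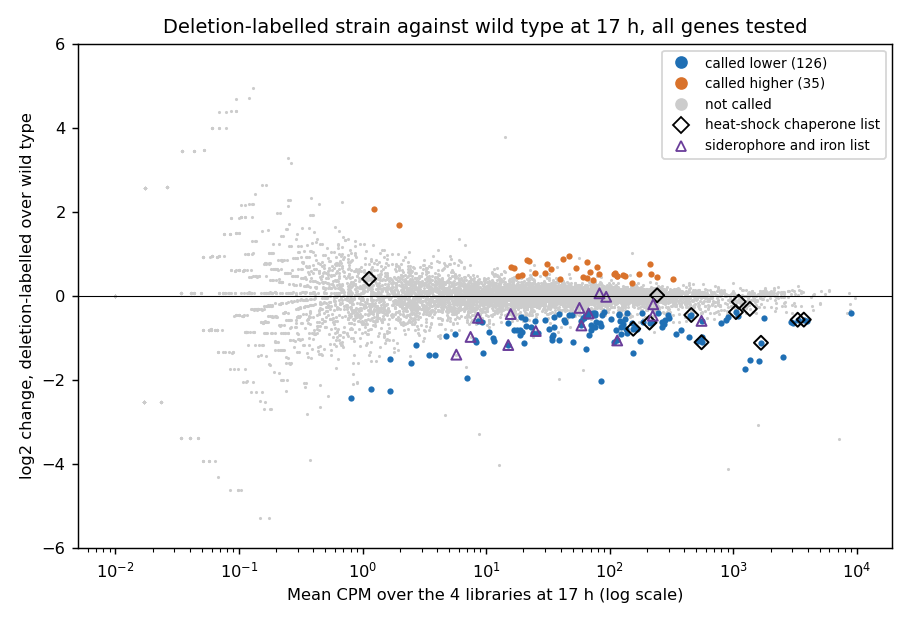
Log2 change of the deletion-labelled strain over wild type at 17 h (vertical axis) against the mean CPM of the 4 libraries (horizontal log axis), 1 point a gene for 9670 genes. The 126 genes called lower reach down to -2.43 and include genes above 1000 CPM, the 35 called higher lie at or below a mean of 323 CPM, and 8 of the 12 heat-shock list genes (diamonds) lie among the genes called lower.

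The genes that fell most, where the mean was 10 CPM or more, stood at 0.248 to 0.468 times the wild type level. AN9184 had 29.6 and 37.9 CPM in the deletion-labelled cultures, against 131 and 143 CPM in wild type (log2 change -2.01 ± 0.20, adjusted p = 0.00046). AN3555 had 465 and 693 CPM in the deletion-labelled cultures, against 1846 and 1989 CPM in wild type (-1.73 ± 0.24, adjusted p = 0.00305). AN5781 followed with 639.6 and 993 CPM, against 2319 and 2471 CPM in wild type (-1.55 ± 0.23, adjusted p = 0.00374). In each of these genes the strains did not overlap, and replicate 1 was the lower culture in both strains. The same order of cultures was seen for AN7892, with 618 and 806 CPM in the deletion-labelled cultures and 1972 and 2089 CPM in wild type. AN2530 had 1125 and 1571 CPM in the deletion-labelled cultures and 3645 and 3762 CPM in wild type. On the authors' deposited per-length scale, AN2530 had the highest level of these 5, with a log2 RPKM of 9.95 in the deletion-labelled group and 11.55 in wild type.

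AN2585, another of the 12 largest falls, had 83.8 and 89.9 CPM in the deletion-labelled cultures, against 219 and 228 CPM in wild type (log2 change -1.36 ± 0.13, adjusted p = 0.00046). AN5228 had 33.8 and 41.9 CPM, against 84.4 and 98.8 CPM in wild type (-1.26 ± 0.16, adjusted p = 0.00156). The reference gives none of these 7 genes a symbol, so no function is stated. The remaining 5 were sidI, hsp104 and hsp78, described with their groups, and AN10177 and AN8636, which changed by -1.11 ± 0.23 and -1.09 ± 0.19. Of the 12, AN9184, AN2585 and AN5228 were called whichever of the 4 libraries was left out. AN10177 was lost whichever was left out. AN3555, AN5781, AN7892, sidI and hsp78 lost their call only without deletion-labelled replicate 1 (adjusted p = 0.0779, 0.0779, 0.0699, 0.052 and 0.0616). AN2530, hsp104 and AN8636 kept theirs only without deletion-labelled replicate 2 (adjusted p = 0.025, 0.0272 and 0.0165) and reached up to 0.194, 0.216 and 0.183 in the other fits.

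**Figure D2:**
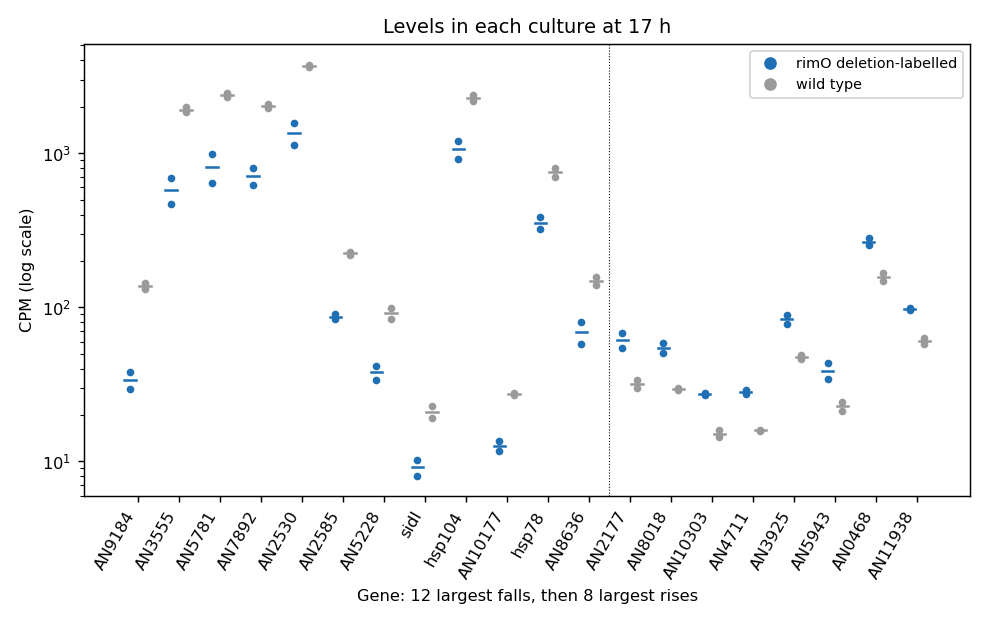
CPM (log axis) of the 12 genes with the largest falls and the 8 with the largest rises among called genes of 10 CPM or more, 1 point a culture and a bar at the mean of 2. The deletion-labelled cultures (left of each pair) lie below the wild type cultures for AN9184 to AN8636 and above them for AN2177 to AN11938, with no overlap in any gene.

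Heat-shock chaperone transcripts were lower in the deletion-labelled strain. Chaperones of this class fold new proteins and refold or pull apart damaged ones, and their genes are induced together by heat in fungi. Of 12 heat-shock chaperone and co-chaperone genes, 8 fell (66.7%, beside 1.3% of all genes tested), 4 were not called and none was higher, and their median log2 change was -0.51 beside 0.02 over all genes tested. The list was composed after values of these data had been seen, so the count is a description. It was drawn from gene symbols, but the reference gives AN0858 none. That gene, the largest fall of the list, was entered as hsp104 from general knowledge.

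The disaggregases, which pull proteins out of aggregates, fell most. hsp104 (AN0858), the cytosolic disaggregase, had 914 and 1202 CPM in the deletion-labelled cultures, against 2177 and 2401 CPM in wild type (log2 change -1.11 ± 0.21, adjusted p = 0.0151). hsp78 (AN1163), its mitochondrial counterpart, had 320.3 and 383 CPM in the deletion-labelled cultures, against 704 and 805 CPM in wild type (-1.10 ± 0.14, adjusted p = 0.00229). They stood at 0.463 and 0.466 times the wild type level, with the cultures of the strains well apart. The main folding machines followed. hsp90 (AN8269) had 2552 and 2799 CPM in the deletion-labelled cultures, against 3848 and 4064 CPM in wild type (-0.56 ± 0.11, adjusted p = 0.0159), and hsp70 (AN5129) had 2848 and 3162 CPM, against 4370 and 4496 CPM (-0.56 ± 0.12, adjusted p = 0.0358).

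Transcripts of 4 other list members were also called lower. fes1 (AN6543), which in yeast exchanges the nucleotide of cytosolic Hsp70, had 115 and 114 CPM in the deletion-labelled cultures, against 199 and 193 CPM in wild type (log2 change -0.78 ± 0.09, adjusted p = 0.00135). zpr1 (AN2455), a zinc-finger protein that in yeast helps to fold a translation elongation factor, had 163 and 166 CPM, against 252 and 258 CPM in wild type (-0.63 ± 0.08, adjusted p = 0.00137). The cultures of these genes nearly coincided within each strain. sti1 (AN9124), which passes client proteins between Hsp70 and Hsp90, had 369 and 404 CPM in the deletion-labelled cultures and 522 and 534 CPM in wild type (-0.45 ± 0.10, adjusted p = 0.0413). hsp88 (AN1047), of the Hsp110 type, had 891 and 932 CPM in the deletion-labelled cultures and 1167 and 1209 CPM in wild type (-0.38 ± 0.09, adjusted p = 0.0464).

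The 4 members without a call were mixed. The p23-type Hsp90 partner wos2 (AN6921) had 1289 and 1145 CPM in the deletion-labelled cultures and 1531 and 1478 CPM in wild type (log2 change -0.31 ± 0.11, adjusted p = 0.219). The mitochondrial folding genes hsp60 (AN6089) and grpE (AN6248) had log2 changes of -0.13 ± 0.12 and 0.02 ± 0.07, and awh11 (AN3725), a small heat-shock gene, was near 1 CPM in both strains. Thus of the mitochondrial members, the disaggregase hsp78 passed the test while the folding chaperonin hsp60 did not, and the test of the difference between them was not run. The number of list members called was 2 without deletion-labelled replicate 1 (fes1 and zpr1), 3 without either wild type culture, and 5 without deletion-labelled replicate 2.

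Other protein-quality and protein-synthesis lists had no call, where 1.66% of all genes tested were called. Of 5 endoplasmic reticulum folding genes none was called (median log2 change -0.13), and the chaperone bipA (AN2062), an Hsp70 of that compartment, had 602 and 596 CPM in the deletion-labelled cultures and 646 and 663 CPM in wild type (-0.13 ± 0.09, adjusted p = 0.645). The same count of 0 held for 18 genes of the proteasome and Cdc48 (median -0.03), which destroy damaged proteins, for 25 genes of ribosome assembly (0.09) and for 7 ribosomal protein genes (0.06). By edgeR at an unadjusted p under 0.05, 2 of the endoplasmic reticulum genes were lower and 0 of the other 3 lists, and DESeq2 and limma-voom also called 0 of the 4 lists. With so low a share over all genes, the lack of calls in lists of this size says little. A missed threshold does not show that these genes were alike in the strains.

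**Figure D3:**
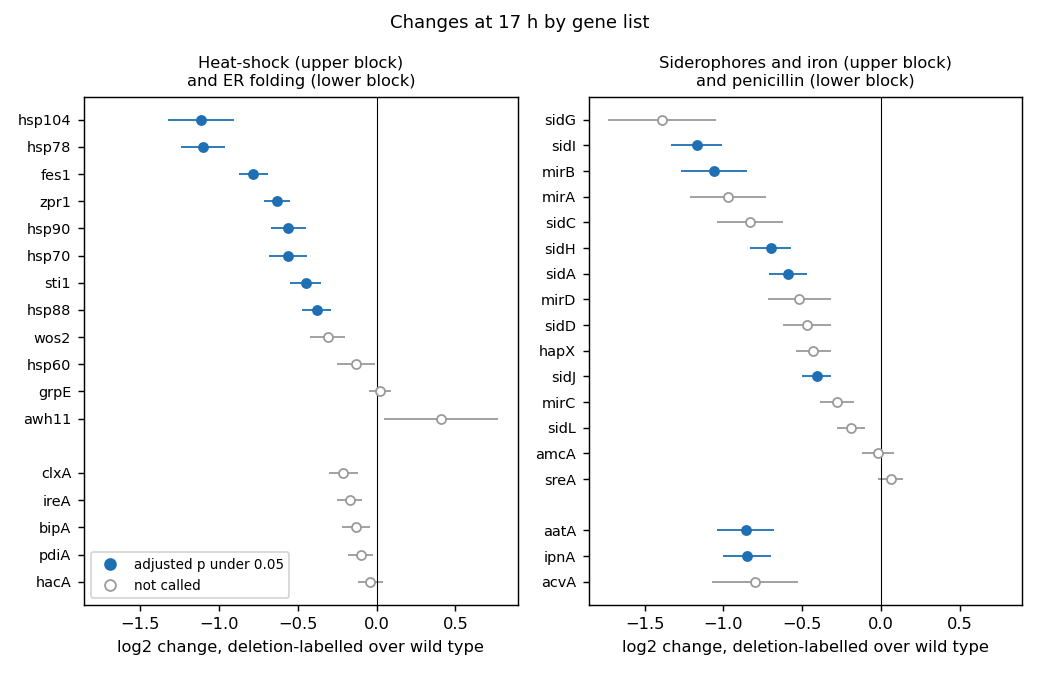
Log2 change of the deletion-labelled strain over wild type at 17 h for each member of 4 gene lists, with the SE as bars. Filled points passed an adjusted p of 0.05, which 8 of 12 heat-shock genes, 0 of 5 endoplasmic reticulum folding genes, 5 of 15 siderophore and iron genes and 2 of 3 penicillin genes did, each below 0.

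The chaperone levels in the overexpression-labelled strain at 17 h are set beside these. That strain was compared with the same wild type libraries, so its values are not independent of those above. hsp104 had 914 and 1202 CPM in the deletion-labelled cultures, 1369 and 812 CPM in the overexpression-labelled cultures and 2177 and 2401 CPM in wild type. hsp90 had 2552 and 2799 CPM in the deletion-labelled, 2449.9 and 2184 CPM in the overexpression-labelled and 3848 and 4064 CPM in the wild type cultures. The overexpression-labelled cultures thus lay on the side of the deletion-labelled ones, below wild type. Of the 12 list members, 11 were called lower in the overexpression-labelled strain than in wild type and none higher (of all genes 29.5% were called there, 14.5% lower and 15.1% higher). In the direct test of the deletion-labelled against the overexpression-labelled strain, 3 of the 12 were higher in the deletion-labelled strain (14.9% of all genes tested were higher) and none was lower (15.6%). Those were hsp60 (log2 difference 0.67 ± 0.12, adjusted p = 0.000749), grpE (0.45 ± 0.07, adjusted p = 0.000329) and hsp70 (0.34 ± 0.12, adjusted p = 0.0499). The direct difference was -0.04 ± 0.20 for hsp104 and -0.03 ± 0.09 for fes1, small beside their changes against wild type.

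**Figure D4:**
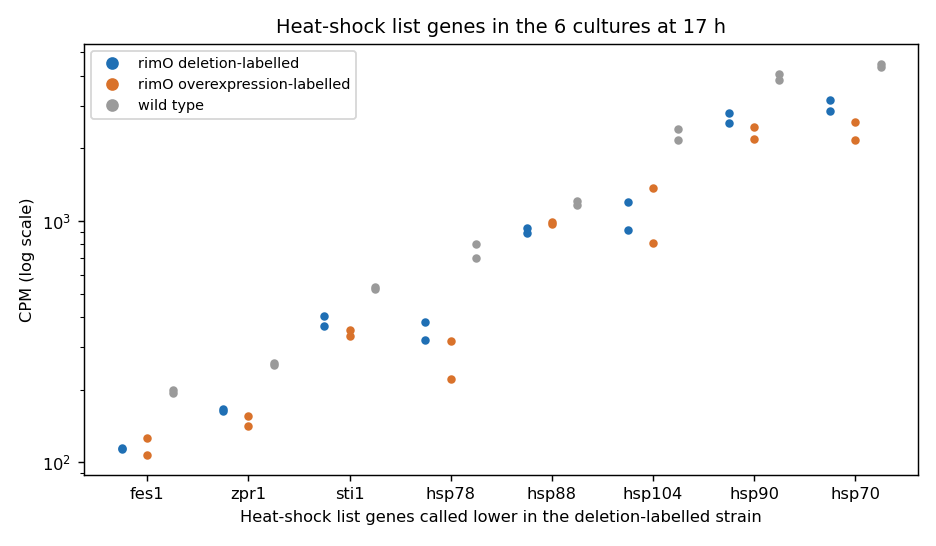
CPM (log axis) of the 8 heat-shock list genes called lower, in the 2 deletion-labelled cultures (left), the 2 overexpression-labelled cultures (middle) and the 2 wild type cultures (right) at 17 h. In each gene all 4 cultures of the labelled strains lie below both wild type cultures.

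Iron acquisition was the other group with several calls. Aspergilli take up iron with siderophores, small iron-binding peptides. Several of the sid enzymes, though not all, make them and the mir transporters import them. Both sets are repressed when iron is ample. Of 15 siderophore and iron genes, 5 fell (33.3%, beside 1.3% of all genes) and none rose. Their median log2 change was -0.52, and 14 of the 15 had a change below 0. sidA (AN5823), the ornithine monooxygenase of the first step, had 416 and 467 CPM in the deletion-labelled cultures, against 657 and 673 CPM in wild type (log2 change -0.59 ± 0.12, adjusted p = 0.0263). sidH (AN6235), an enzyme that prepares the acyl side chain in Aspergillus fumigatus, had 45.0 CPM in each deletion-labelled culture, against 74.3 and 71.7 CPM in wild type (-0.70 ± 0.13, adjusted p = 0.0168). sidJ (AN6239) changed by -0.41 ± 0.09 (adjusted p = 0.0406). In each of these 3 genes the strains did not overlap. sidI and the transporter gene mirB were the largest called falls of the list, at -1.17 ± 0.16 and -1.06 ± 0.21.

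The iron regulators were not called. The repressor gene sreA (AN0176) had 80.6 and 88.2 CPM in the deletion-labelled cultures and 80.9 and 80.6 CPM in wild type, and its counterpart hapX (AN8251), which acts under iron starvation, had 13.2 and 13.6 CPM in the deletion-labelled cultures and 17.9 and 18.3 CPM in wild type (log2 change -0.43 ± 0.11, adjusted p = 0.0843). Of 6 genes of the CCAAT-binding complex and iron-using enzymes edgeR called 0, while DESeq2 and limma-voom each called 1 higher, as did an unadjusted p under 0.05 in edgeR. The member with the smallest p was hemA (AN2284) of heme synthesis, at 0.30 ± 0.07 (adjusted p = 0.0586). The siderophore calls depend on the cultures. Without deletion-labelled replicate 1, 0 of the 15 passed edgeR's test (9 were lower at an unadjusted p under 0.05). Without either wild type culture 1 did, without deletion-labelled replicate 2 there were 4, and without the overexpression-labelled libraries 8.

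The other lists had at most 2 calls each. In all, 19 of 335 tested genes on 32 lists fell by edgeR and 0 rose, beside 1.3% lower and 0.362% higher of all genes tested, and 24 lists had no call. At an unadjusted p under 0.05 in edgeR the list genes held 52 lower and 13 higher, beside 678 and 465 of all 9670 genes tested. DESeq2 called 28 list genes lower and 1 higher, and limma-voom 22 lower and 1 higher. The shares over all genes with those tools are not set beside these counts, so nothing is read from them. sskA (AN7697), the response regulator at the head of the osmotic-stress SakA pathway, had 91.7 and 101 CPM in the deletion-labelled cultures, against 140 and 152 CPM in wild type (log2 change -0.60 ± 0.10, adjusted p = 0.0105). It was the sole call among 10 genes of that pathway. Although a response regulator, it was also placed on a list of 8 stress and starvation transcription factors, whose other 7 members were not called. The kinase gene of the pathway, sakA (AN1017), had 172 and 175 CPM in the deletion-labelled cultures and 153 and 151 CPM in wild type (0.19 ± 0.08, adjusted p = 0.347). mpdA (AN5975), the mannitol-1-phosphate dehydrogenase of mannitol synthesis, had 839 and 984 CPM in the deletion-labelled cultures, against 1254 and 1288 CPM in wild type (-0.48 ± 0.09, adjusted p = 0.0198). The trehalose synthesis gene tpsA (AN5523), of the other protective sugar on the same list, had 142 and 154 CPM in the deletion-labelled cultures and 150 and 145 CPM in wild type. Among 15 nutrient and stress signalling kinases the sole call was AN7572, the targeted gene itself, which is counted in the 19. The remaining calls were of ipnA (AN2622) and aatA (AN2623) among 3 penicillin genes, at -0.85 ± 0.15 and -0.86 ± 0.18, and of the peroxiredoxin gene prxA (AN8692) among 13 genes of oxidative stress defence, at -0.65 ± 0.09. The penicillin calls were lost whichever library was left out, and prxA was lost without deletion-labelled replicate 1 or wild type replicate 2 (adjusted p = 0.0772 and 0.071). Of 20 sterol synthesis and 5 zinc uptake genes edgeR called 0 (median -0.08 and -0.12), with 2 and 0 at an unadjusted p under 0.05, and DESeq2 and limma-voom called 0. Of 11 glycolysis and fermentation genes edgeR called 0 (median log2 change -0.23), with 6 lower at an unadjusted p under 0.05, 4 called lower by DESeq2 and 2 by limma-voom. The member with the smallest p was pgkA (AN1246), phosphoglycerate kinase, with 2459 and 2637 CPM in the deletion-labelled cultures and 3299.9 and 3469 CPM in wild type (-0.41 ± 0.10, adjusted p = 0.0626). Both sskA and mpdA lost their call without deletion-labelled replicate 1 (adjusted p = 0.148 and 0.219) or wild type replicate 2 (0.145 and 0.199), and mpdA also without wild type replicate 1 (0.121).

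A few further genes with a symbol in the reference were chosen after their values were seen. pps1 (AN0129), named for a dual-specificity protein phosphatase of yeast, had 93.2 and 133 CPM in the deletion-labelled cultures, against 231 and 249 CPM in wild type (log2 change -1.08 ± 0.14, adjusted p = 0.00235). frdA (AN10296), named for fumarate reductase, had 1309 and 1618 CPM in the deletion-labelled cultures, against 2024 and 2198 CPM in wild type (-0.53 ± 0.11, adjusted p = 0.0236). agd3 (AN2954), named for a deacetylase of a cell-surface polysaccharide in Aspergillus fumigatus, had 251 and 255 CPM in the deletion-labelled cultures, against 181 and 171 CPM in wild type (0.52 ± 0.09, adjusted p = 0.0134). It was the sole called gene with a symbol that rose. With a library left out, pps1 stayed called in all 4 fits, frdA in 1 and agd3 in none.

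Below a mean of 10 CPM, AN12015 and AN11159 rose by 2.08 ± 0.45 and 1.70 ± 0.34 on the log2 scale (edgeR adjusted p = 0.0322 and 0.0225). Among called genes with a mean of 10 CPM or more, the 8 largest rises were of genes without a symbol in the reference. AN2177 led them at 54.6 and 68.0 CPM in the deletion-labelled cultures, against 33.9 and 29.8 CPM in wild type (log2 change 0.95 ± 0.14, adjusted p = 0.00379). AN8018 had 58.7 and 50.5 CPM, against 29.8 and 29.1 CPM in wild type (0.88 ± 0.19, adjusted p = 0.0279). AN10303 had 27.1 and 27.9 CPM, against 15.9 and 14.3 CPM in wild type (0.86 ± 0.13, adjusted p = 0.00379). In these genes the cultures agreed within each strain more closely than the strains did. AN4711, AN3925, AN5943, AN0468 and AN11938 rose by 0.83, 0.81, 0.77, 0.77 and 0.69 on the log2 scale, with adjusted p of 0.00379, 0.00305, 0.0194, 0.0464 and 0.0128. The most abundant of the 8 was AN0468, with 280.4 and 254 CPM in the deletion-labelled cultures and 167 and 148 CPM in wild type. None of the 35 genes that rose was called in all 4 fits with a library left out.

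The genes called at 17 h were then read at the late harvest. The late contrast shares no library with the 17 h contrast, but the late libraries entered the filter, scaling and dispersion of the same fit, so the 17 h calls are not fully separate from them. The deletion-labelled strain was sampled at 54 h and wild type at 48 h, so strain and hour cannot be told apart there, and 80.0% of all genes were called. Of the 126 genes that were lower in the deletion-labelled strain at 17 h, 92 were higher in it late (73.0%, beside 40.2% of all genes tested), 23 were lower (18.3%, beside 39.8%) and 11 were not called. The 92 make up 2.37% of the 3884 genes higher late, and the 23 make up 0.598% of the 3849 genes lower late. The median late change of the 126 was 1.37, beside -0.01 over all genes tested. For 3 of the 126 the late wild type group had no count. With those at the bound that 3 counts over the group allow, the median was also 1.37. Of the 35 genes higher at 17 h, 19 were higher late (54.3%), 15 lower (42.9%) and 1 was not called. Without deletion-labelled replicate 1, 9 genes were lower at 17 h and higher late and 4 were lower at both harvests. Those counts were 14 and 4 without wild type replicate 2, 29 and 5 without wild type replicate 1, and 61 and 17 without deletion-labelled replicate 2.

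Single genes changed sign by wide margins. In the deletion-labelled strain AN3555 had 465 and 693 CPM early and 2581 and 3071 CPM late, against 1846 and 1989 CPM early and 4.00 and 3.81 CPM late in wild type. In the deletion-labelled strain hsp104 had 914 and 1202 CPM early and 2596 and 2884 CPM late, against 2177 and 2401 CPM early and 299 and 218 CPM late in wild type. AN3555 and hsp104, lower in the deletion-labelled strain on glucose, were thus far above wild type late. Their level had dropped in wild type and risen in the deletion-labelled strain by then. The late log2 change was 9.50 ± 0.36 for AN3555 and 3.41 ± 0.22 for hsp104. Of the 12 heat-shock genes, 9 were higher late and 1 was lower (beside 40.2% and 39.8% of all genes tested), hsp90 and hsp70 being the members without a call (0.18 ± 0.11 and -0.03 ± 0.12), and all 15 siderophore and iron genes were higher late (beside the same 40.2%). pps1 and AN8636 kept their direction, with late changes of -1.09 ± 0.14 and -3.28 ± 0.20. The difference between the strain contrasts (late change minus 17 h change) was called for 144 of the 161 genes, beside 66.8% of all genes tested. It was positive for 102 of the genes lower at 17 h (34.0% of all genes tested had a positive call) and negative for 12 (32.8%). The 17 h change that chose these genes enters the difference with its sign turned, which favours a positive value for genes chosen as lower, so nothing is read from these counts.

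**Figure D5:**
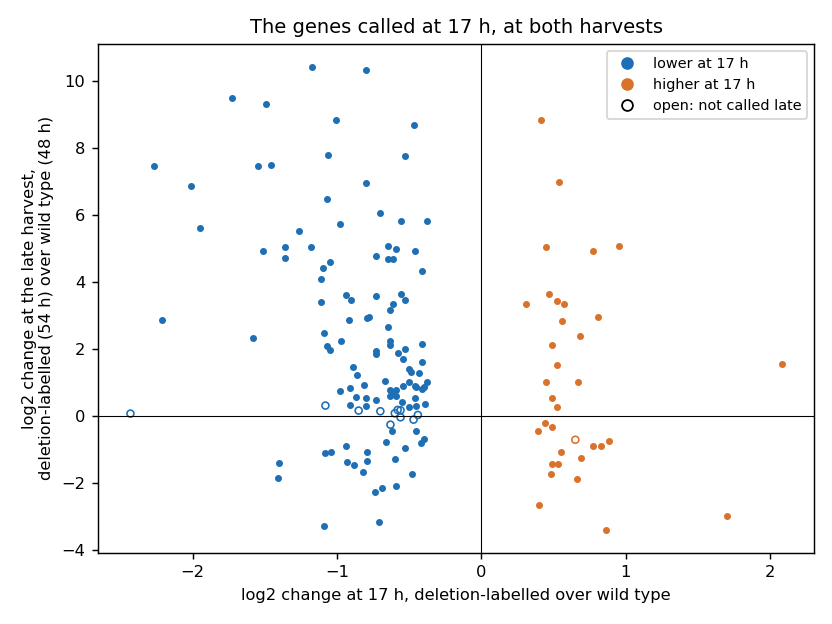
Late log2 change (deletion-labelled strain at 54 h over wild type at 48 h, vertical axis) against the log2 change at 17 h (horizontal axis) for the 161 genes called at 17 h, with open points where the late change was not called. Of the 126 genes lower at 17 h (left), 92 lie above 0 with a late call and 23 below.

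The deletion-labelled strain was also tested directly against the overexpression-labelled strain at 17 h, where 30.5% of all genes were called. This contrast shares the deletion-labelled libraries with the 161 calls, so its counts are a description. Of the 126 genes lower than in wild type, 34 were also lower than in the overexpression-labelled strain (15.6% of all genes tested were lower), 18 were higher (14.9%) and 74 were not called. Of the 35 higher genes, 22 were also higher than in the overexpression-labelled strain, 4 were lower and 9 were not called. The 56 genes called in the same direction in both contrasts became 1 without wild type replicate 2, 6 without deletion-labelled replicate 1, 11 without wild type replicate 1 and 34 without deletion-labelled replicate 2. AN9184 had 29.6 and 37.9 CPM in the deletion-labelled cultures, 49.6 and 28.8 CPM in the overexpression-labelled cultures and 131 and 143 CPM in wild type. AN3555, AN5781, AN7892 and AN2530 likewise overlapped between the labelled strains, with direct differences from -0.20 ± 0.25 for AN2530 to -0.03 ± 0.24 for AN3555. mirB and AN10177 separated the labelled strains, mirB with 62.6 and 86.6 CPM in the deletion-labelled cultures, 166 and 149 CPM in the overexpression-labelled cultures and 154 and 158 CPM in wild type (direct difference -1.07 ± 0.21, adjusted p = 0.00132). Of the 15 siderophore and iron genes, 8 were lower and 1 higher in the overexpression-labelled strain than in wild type. Those shares were 14.5% and 15.1% over all genes tested. In the direct test 4 of the 15 were higher in the deletion-labelled strain, sidA, sidI and sidJ among them, and 3 were lower. All 3 penicillin genes were lower than in wild type in the overexpression-labelled strain. Of the 8 largest rises, AN5943 differed most from that strain, with 43.3 and 34.5 CPM in the deletion-labelled cultures, 7.47 and 8.33 CPM in the overexpression-labelled cultures and 21.3 and 24.2 CPM in wild type (2.29 ± 0.16, adjusted p = 1.79e-07).

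The genes whose call did not depend on any of the 4 libraries numbered 11, all lower in the deletion-labelled strain, and 75 of the 161 calls were lost whichever library was left out. Every one of the 161 kept its direction in the 4 fits. Since their cultures did not overlap between the strains, leaving out 1 culture could hardly turn the sign, so nothing is read from this. The 11 were AN9184, AN2585, AN5228, pps1, fes1, zpr1, AN2225, AN2051, AN6250, AN3573 and AN1152. AN1152 had 214 and 209.6 CPM in the deletion-labelled cultures, 353 and 331 CPM in the overexpression-labelled cultures and 335 and 334 CPM in wild type (log2 change against wild type -0.66 ± 0.08, adjusted p = 0.00135). It also differed from the overexpression-labelled strain (-0.69 ± 0.08, adjusted p = 1.65e-05) and was lower late (-0.78 ± 0.08, adjusted p = 4.27e-07). AN2225 had 79.1 and 82.9 CPM in the deletion-labelled cultures, 88.8 and 77.9 CPM in the overexpression-labelled cultures and 137 and 149 CPM in wild type (-0.82 ± 0.09, adjusted p = 0.00135). AN2051, AN6250 and AN3573 changed by -0.81 ± 0.10, -0.80 ± 0.10 and -0.74 ± 0.09, and the 2 strain groups were apart in each. The reference gives no symbol for AN1152, AN2225, AN2051, AN6250 or AN3573.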

How the data were processed

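Per the labels' protocols, libraries were prepared with a Nextera kit after poly(A) enrichment. The deposited counts hold 1 whole number per gene and library and are not normalized. Trimmomatic, BWA, HTSeq, limma and edgeR are named, with no version, in the submitters' processing notes. The genome build and the strandedness of counting are not given in the sources used here, so reads of overlapping or antisense genes cannot be told apart. The authors also deposited log2 RPKM values, 1 per gene and group, which were used only to set levels of genes side by side.

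Of 10727 entries, 15 duplicates with equal values and 31 uORF identifiers (0.000199% of counts) were left out. The main test was edgeR 4.0.16 under R 4.3.3, with TMM scaling, filterByExpr and 1 quasi-likelihood fit over 12 libraries in 6 groups. It tested 9670 genes and left 1011 below the filter, with a common biological coefficient of variation of 8.2%. Calls needed a p under 0.05 after Benjamini-Hochberg adjustment over all genes tested. Each SE was derived by dividing the absolute log2 change by the root of F, since edgeR gives none. Levels are TMM-scaled CPM computed from the deposited counts. Bounds take 3 counts over a group and cover counting error only.

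A test on simulated data used the layout of the 12 libraries (8706 genes). All groups were drawn from the wild type means at 17 h, with 1 common dispersion for every gene. Changes were put into the deletion-labelled group at 17 h, only in genes with a mean expected count above 50. The real data hold spread that differs between genes, so these recoveries do not measure the power of the real comparison. Of 50 genes at each log2 size, 34 were recovered at 0.5, 49 at 1, and 50 at sizes 2 and 4, and 15 unchanged genes were called.

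Genes named by rule are AN7572, the 12 called genes with the largest fall and the 8 with the largest rise where the 4 libraries averaged 10 CPM or more, and up to 3 called members of each list, or its member of lowest p if it had no call. Genes outside it are single list members shown beside these and others said to be chosen later. Tests, members and lists were chosen with earlier results of these data known, and the heat-shock, endoplasmic reticulum, proteasome, ribosome, sterol, osmotic and zinc lists were composed after values had been seen. Symbols come from the RefSeq gene table (ASM1142v1; 9967 genes matched, 778 of them with a symbol) or from general knowledge. No sequence was used. Alternatives were other scalings, filters, tools (DESeq2 1.42.0, limma-voom 3.58.1), thresholds and library sets, a replicate block and each library left out in turn.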

Additional observations from a re-analysis of the deposited data

Results flagged for a closer look

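The change between deletion-labelled strain and wild type differed between the harvests for AN7572 and for each of the 20 genes with the largest falls and rises, by the test of the difference itself (late strain change minus 17 h strain change, edgeR, all adjusted p under 0.05). The 20 genes were chosen for their 17 h change among called genes with a mean of 10 CPM or more. That change enters this difference with its sign turned, so the choice favours a difference and nothing is read from the count. Since 66.8% of all genes tested passed that test, and the late harvests were taken at 54 h and 48 h, strain and hour cannot be told apart. The difference was -2.44 on the log2 scale for AN7572. Among the genes that fell at 17 h, it was 8.87 for AN9184, 11.22 for AN3555, 9.01 for AN5781, 6.45 for AN7892 and 8.94 for AN2530. It was 6.08 for AN2585, 6.77 for AN5228, 11.58 for sidI (AN0609), 4.52 for hsp104 (AN0858), 5.21 for AN10177 and 5.51 for hsp78 (AN1163). AN8636, at -2.18, was the sole one of these 12 to fall further late. Among the genes that rose at 17 h, the difference was 4.12 for AN2177, 2.14 for AN3925 and 4.17 for AN5943. It was negative for AN8018 at -1.64, AN10303 at -4.23, AN4711 at -1.72, AN0468 at -1.64 and AN11938 at -1.93.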

How the results depend on the processing

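The counts of calls move with the culture left out and with the threshold more than with scaling or filter. With each of the 4 libraries left out in turn, 1 to 25 genes were higher (35 with all), 13 to 88 lower (126), 4 to 17 lower at both harvests (23), 9 to 61 lower at 17 h and higher late (92), and 1 to 34 called in the same direction against the overexpression-labelled strain (56). AN7572 changed by -0.79 to -0.63. At an adjusted p under 0.01 the same counts were 7, 35, 6, 26 and 11. DESeq2 gave 191 lower genes, 139 of them higher late. limma-voom gave 33 higher and 137 lower genes, and the 4 libraries alone 43 and 165. RLE and upper-quartile scaling moved the median log2 change of all genes by -0.01 and -0.002.

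The heat-shock list had 5 calls with the replicate block, 3 at an adjusted p under 0.01 and 2 to 5 with a library left out (8 with all). The siderophore and iron list had 8 calls without the overexpression-labelled libraries, 1 at the stricter threshold and 0 to 4 with a library left out (5 with all). These list counts were added after seeing the data. With the replicate number as a block, 26 genes were higher and 103 lower, and AN7572 changed by -0.71 (adjusted p = 0.00678). The numbers share no stated source, and deviations of same-numbered wild type and deletion-labelled cultures at 17 h correlated across genes at 0.101, so they were not taken as pairs. Among 53 named genes, 1 value reversed. The ribosomal protein gene rps23 (AN1345) changed by -0.02 without deletion-labelled replicate 1, beside 0.15 with all libraries (-0.02 to 0.29 with a library left out), and was not called. Late values have no counterpart in fits of the 4 or the 6 libraries at 17 h, nor direct values against the overexpression-labelled strain in fits without it. With 2 cultures a group and 1 where a culture is left out, the lone culture is assumed to vary like the other groups. The cause of these shifts was not tested.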

Other observations

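Some called genes were neighbours. Of 9095 tested genes that the reference places in order, 152 were called, and 16 of these lay in 8 pairs of adjacent tested genes called in the same direction (6 pairs lower, 2 higher), with no run of 3 or more. How many pairs chance would give was not tested. The penicillin genes ipnA and aatA form 1 of these pairs. The pair of AN6543 (fes1) and AN10830 is another.

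A further stretch, chosen after its values were seen, holds 2 pairs around AN3227. AN3226 had 479 and 279 CPM in the deletion-labelled cultures, against 770 and 721 CPM in wild type (log2 change -0.98 ± 0.17, edgeR adjusted p = 0.0128). AN3225 had 9.24 and 6.09 CPM, against 14.2 and 16.0 CPM in wild type (-1.01 ± 0.18, adjusted p = 0.0135). In these genes replicate 2 of the deletion-labelled strain was the lower one, unlike in most genes that fell. AN3228 had 0.415 and 0.692 CPM in the deletion-labelled cultures and 2.98 and 2.61 CPM in wild type, and AN3229 had 1.87 CPM in each deletion-labelled culture and 5.08 and 4.85 CPM in wild type. AN3227 between them (-0.89 ± 0.63, adjusted p = 0.666) and AN3224 and AN3230 on the flanks (-0.09 ± 0.09 and -0.62 ± 0.33) were not called. At the late harvest AN3225 and AN3226 were higher in the deletion-labelled strain, by 8.82 ± 0.34 and 5.72 ± 0.21, and AN3229 was lower by -1.84 ± 0.29. In the late deletion-labelled cultures AN3228 was at least 16.9-fold higher than in wild type, where it had no count (bound from 3 counts over the group).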
